A study of Mus musculus with 9 samples.

Results

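The genes described here are 10 receptors and channels through which arteries set their tone, picked by name from the 17179 gene symbols of the study. Npy1r, Adra1d, Agtr1a, Ednra and Ednrb encode receptors for neuropeptide Y, noradrenaline, angiotensin II and endothelin. Cacna1c encodes the pore of the L-type calcium channel, and Kcnma1 and Kcnmb1 encode the pore and an accessory subunit of the BK potassium channel, which opens with voltage and calcium. Gucy1a2 encodes a subunit of soluble guanylate cyclase, and Pde5a the phosphodiesterase that degrades the cyclic GMP that the cyclase makes. All 10 were listed above 0 in all 9 libraries.

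In an arterial smooth muscle cell, calcium entry through L-type channels and release from stores drive contraction. Constrictor receptors raise calcium through Gq proteins, or, for the neuropeptide Y receptor, act through Gi proteins and enhance the response to other constrictors. BK channels hyperpolarise the membrane and limit calcium entry, and nitric oxide relaxes the cell by raising cyclic GMP. Endothelin receptor B is also found on endothelium, where it leads to nitric oxide release.

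RNA of C57BL/6J mouse aorta was sequenced, and the values are FPKM, which correct fragment counts for transcript length and library size. Of the 5 groups, the normal group (2 libraries) drank distilled water. The other groups drank a solution of BAPN (β-aminopropionitrile), which blocks the enzymes that cross-link the fibres of the vessel wall, at 1 g/kg/day to induce aortic dissection. The BAPN group (2 libraries) had no further agent, the BAPN+TPA group (2 libraries) was injected intraperitoneally with the AP-1 activator TPA at 50 ng/g/day from day 1, AP-1 being a transcription factor, and the BAPN+T-5224 group (2 libraries) was gavaged with the AP-1 inhibitor T-5224 at 5 mg/kg/day. The BAPN+coQ10 group (1 library, whose label is read here as coenzyme Q10) was gavaged at 10 mg/kg/day, and gavage began on day 7 or 14. All mice were killed on day 28. The titles of T-5224 replicates 1 and 2 name 2 weeks and 3 weeks. The sources used here do not give the mice's age or sex or how many mice gave each library, so p-values measure the spread between libraries, which may be technical.

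The libraries listed 13982 to 16204 genes, and their tissue content differed. Of the FPKM sum, haemoglobin genes held 1.03% to 1.25% in normal, 68.9% to 74.1% in BAPN and BAPN+TPA, 40.8% and 11.2% in T-5224 replicates 1 and 2, and 5.40% in coQ10. Markers of airway epithelium and heart muscle, which are not aortic wall, were high in normal replicate 1, both TPA libraries and T-5224 replicate 2, with summed FPKM of 4217 to 16789 and 734 to 9087, against at most 36.0 and 46.7 in the other 5 libraries. Skeletal muscle markers summed to 2863 and 1297 FPKM in BAPN, 2505 in normal replicate 1, 6980 and 12727 in TPA and 7598 in T-5224 replicate 2, and to 15.3 to 47.2 in normal replicate 2, T-5224 replicate 1 and coQ10, the libraries in which Agtr1a was lowest and Kcnmb1 and Kcnma1 were highest. The part of these cells in any result was not tested. Smooth muscle markers were all above 0 in every library. Given as log2 of FPKM plus 1, the mean of these 11 markers was 6.16 and 5.18 in BAPN replicates 1 and 2 against 8.32 and 9.78 in normal. It was 6.93 and 7.28 with TPA, 8.84 and 6.62 with T-5224 and 8.80 with coQ10. The T-5224 libraries correlated at 0.79 over the tested genes and the normal libraries at 0.85, against 0.94 for BAPN and 0.97 for TPA. Normal replicate 1 and T-5224 replicate 2 are therefore also left out in a second fit. It was chosen after seeing the data, and its counts are given only in the closing section, with those of all tested genes.

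**Figure D1:**
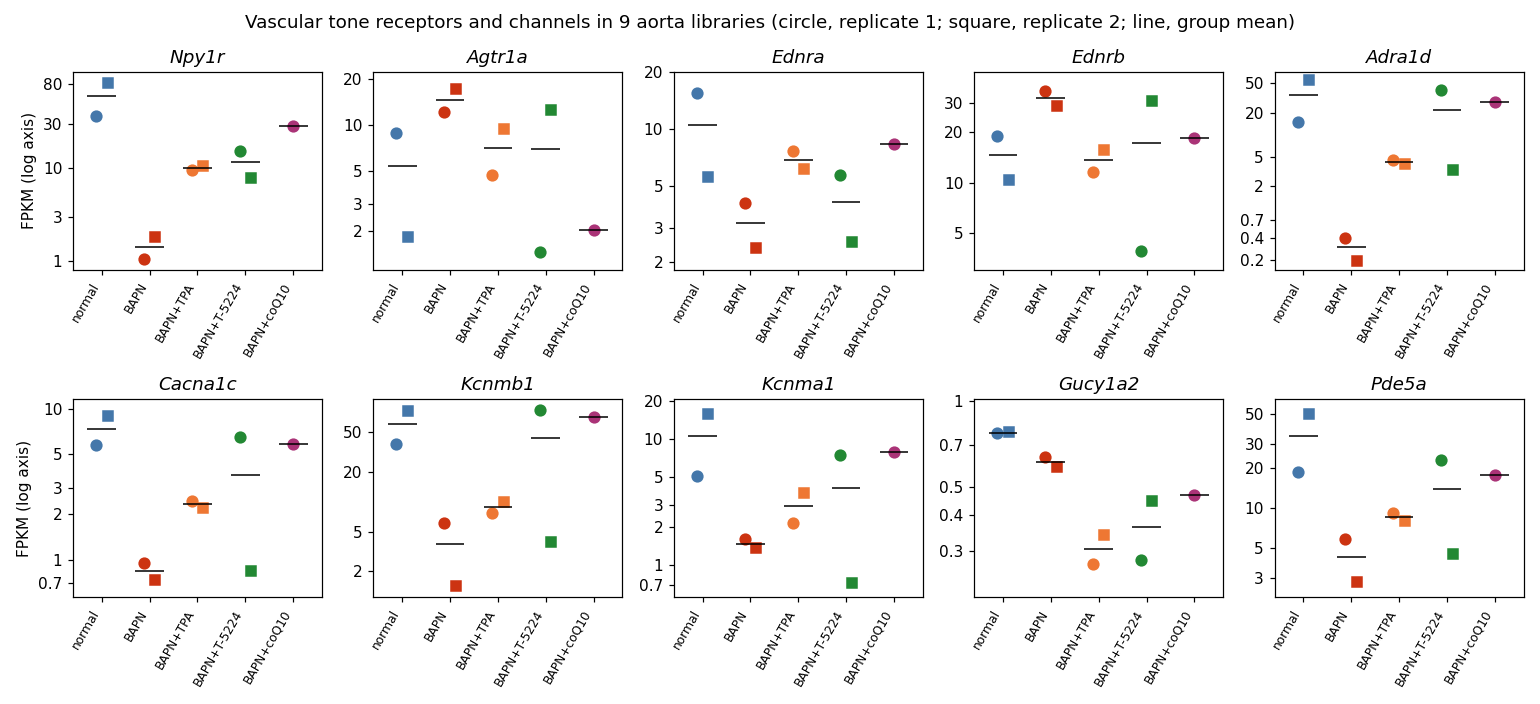
FPKM of the 10 genes in the 9 aorta libraries on log axes, with circles for replicate 1, squares for replicate 2 and a line at the group mean. Npy1r, Ednra, Adra1d, Cacna1c, Kcnmb1, Kcnma1 and Pde5a lie lowest on average in BAPN. Agtr1a and Ednrb lie highest there, and the T-5224 replicates lie apart in most panels.

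BAPN against normal aorta addresses what the agent that induces dissection does to the tone genes. Neuropeptide Y receptor 1 fell, and it was the only tested member to pass the test. Ednra, Adra1d, Cacna1c, Kcnmb1, Kcnma1 and Pde5a were lower in both BAPN libraries than in both normal ones without passing. Gucy1a2, not tested, was lower too, and Agtr1a and Ednrb were higher without passing. In bulk RNA, fewer cells of a type and less RNA per cell cannot be told apart, and this touches every result below.

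Npy1r, the receptor on arterial smooth muscle for the neuropeptide Y that sympathetic nerves release, was at 36.0 and 82.7 FPKM in normal replicates 1 and 2 and at 1.06 and 1.81 FPKM in BAPN. TPA had 9.56 and 10.5 FPKM, T-5224 had 15.4 and 7.85 FPKM, and coQ10 had 28.6 FPKM. The BAPN libraries were the lowest and the normal libraries the highest of the 9, with no overlap of either group with any other library. Npy1r fell by 4.53 on the log2 scale of FPKM plus 1 (SE 0.483, limma adjusted p = 0.0256, 2 libraries in each group), or by 4.02 relative to the median of all tested genes. Over all 12997 tested genes, 3.26% passed in this comparison, 117 higher and 307 lower. With median-of-ratios scaling the split was 196 higher and 30 lower, and without haemoglobin 28 higher and 2 lower. With haemoglobin left out of the FPKM sum, the adjusted p of Npy1r from limma was 0.0556. Without normal replicate 1 it was 0.0644, without BAPN replicates 1 and 2 it was 0.175 and 0.246, and without TPA replicates 1 and 2 it was 0.0992 and 0.0989, with changes of -5.12 to -4.31.

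The promoter of Npy1r is shown because it alone held the AP-1 sequence TGANTCA among the promoters of the 8 members that had an entry. TPA and T-5224 were given as activator and inhibitor of AP-1. The capitals mark that match, 231 bases before the transcript start. Promoters of Kcnmb1, among the most abundant members, and of Ednrb, whose BAPN libraries lay above the normal ones, are shown beside it and held no match. Each run is the 250 bases before a RefSeq transcript start. The Npy1r gene lies at chr8:66697149-66706800, Kcnmb1 at chr11:33962955-33973641 and Ednrb at chr14:103814615-103844508. By these spans the Npy1r and Ednrb runs, and the Npy1r match, lie inside the gene, past its outermost start. The Kcnmb1 run reaches into its gene.
Npy1r promoter (GRCm38.p6, chr8:66697172-66697421, plus strand): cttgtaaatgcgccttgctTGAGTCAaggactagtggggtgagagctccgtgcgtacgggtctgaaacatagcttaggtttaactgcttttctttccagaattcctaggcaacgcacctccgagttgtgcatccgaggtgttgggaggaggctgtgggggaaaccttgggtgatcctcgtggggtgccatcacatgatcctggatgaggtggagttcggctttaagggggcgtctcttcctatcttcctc
Kcnmb1 promoter (GRCm38.p6, chr11:33962763-33963012, plus strand): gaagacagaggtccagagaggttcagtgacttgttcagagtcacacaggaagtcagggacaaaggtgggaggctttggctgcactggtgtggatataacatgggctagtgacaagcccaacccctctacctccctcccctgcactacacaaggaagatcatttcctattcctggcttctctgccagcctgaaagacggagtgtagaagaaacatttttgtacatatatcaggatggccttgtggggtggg
Ednrb promoter (GRCm38.p6, chr14:103843702-103843951, minus strand): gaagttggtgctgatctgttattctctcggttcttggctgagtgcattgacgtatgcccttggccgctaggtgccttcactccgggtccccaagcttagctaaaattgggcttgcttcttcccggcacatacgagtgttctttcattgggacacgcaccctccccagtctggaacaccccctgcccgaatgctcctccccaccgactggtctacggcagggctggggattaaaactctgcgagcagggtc

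The other members' genes lie, on the same build, at chr2:131545357-131562497 (Adra1d), chr3:122729158-122859374 (Pde5a), chr6:118587240-119197384 (Cacna1c), chr8:77663029-77724452 (Ednra), chr9:3532349-3905791 (Gucy1a2), chr13:30336356-30382867 (Agtr1a) and chr14:23292288-24005110 (Kcnma1). Of the 10 members, 8 had an entry in the RefSeq promoter table, with 10 windows of 300 bases (250 before and 50 after the start). Adra1d and Agtr1a had none and were not searched. TGANTCA, searched on both strands, was in 1 of these windows and in 7.81% of all 32851 promoters. The CArG box of serum response factor, a regulator of contractile genes, was in none of the 10 and in 1.63% of all, and TATAAA was in none of the 10 and in 13.6% of all. The 1 match overlaps no other motif. A match is a string of letters and not a measured binding site.

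Adra1d, an alpha-1 adrenergic receptor through which noradrenaline constricts large arteries, had the widest range of the members as a ratio of its highest to its lowest library. It was at 14.7 and 55.0 FPKM in normal and at 0.40 and 0.19 FPKM in BAPN. TPA had 4.58 and 4.06 FPKM, T-5224 had 40.8 and 3.27 FPKM, and coQ10 had 27.4 FPKM. Only the BAPN libraries were below 1 FPKM, and T-5224 replicate 1 lay within the normal range while replicate 2 lay below the TPA libraries. The mean of normal was 118 times that of BAPN, but the log2 change of -4.52 (SE 1.05) missed the test (limma adjusted p = 0.0567).

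Cacna1c, the pore of the L-type calcium channel, was at 5.76 and 8.90 FPKM in normal and at 0.95 and 0.74 FPKM in BAPN. TPA had 2.46 and 2.22 FPKM, T-5224 had 6.48 and 0.84 FPKM, and coQ10 had 5.82 FPKM. The BAPN libraries and T-5224 replicate 2 were the 3 below 1 FPKM. The log2 change in BAPN was -2.15 (SE 0.638, limma adjusted p = 0.082), and the offset of 1 added before the log understates the change of so low a gene. The ratio of the normal to the BAPN mean was 8.68.

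The BK channel pore Kcnma1 was at 5.10 and 15.9 FPKM in normal, 1.61 and 1.36 FPKM in BAPN, 2.15 and 3.77 FPKM in TPA, 7.52 and 0.73 FPKM in T-5224 and 7.82 FPKM in coQ10. Its smooth muscle subunit Kcnmb1, which raises the channel's calcium sensitivity, was at 37.7 and 82.7 FPKM in normal, 6.14 and 1.44 FPKM in BAPN, 7.79 and 10.1 FPKM in TPA, 82.9 and 3.99 FPKM in T-5224 and 71.6 FPKM in coQ10. For both genes T-5224 replicate 1 and coQ10 lay at or above the lower normal library, while T-5224 replicate 2 lay within the BAPN pair for Kcnmb1 and below it for Kcnma1. Kcnmb1 differed by -3.77 in BAPN (SE 1.25, limma adjusted p = 0.0993) and Kcnma1 by -2.03 (SE 0.806, adjusted p = 0.138). The ratio of the normal to the BAPN mean was 15.9 for Kcnmb1 and 7.07 for Kcnma1.

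Pde5a, the target of sildenafil, was at 18.4 and 49.8 FPKM in normal and at 5.85 and 2.81 FPKM in BAPN. TPA had 9.12 and 8.02 FPKM, T-5224 had 22.9 and 4.54 FPKM, and coQ10 had 17.7 FPKM. The BAPN libraries did not overlap with the normal, TPA or coQ10 libraries, and T-5224 replicate 2 lay within the BAPN pair. The log2 change in BAPN was -2.62 (SE 0.763, limma adjusted p = 0.0797).

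Gucy1a2, the alpha-2 subunit of soluble guanylate cyclase, was the lowest member and spanned a narrow range, from 0.27 FPKM in TPA replicate 1 to 0.78 FPKM in normal replicate 2. The normal libraries had 0.77 and 0.78 FPKM, BAPN 0.64 and 0.59, coQ10 0.47, T-5224 0.28 and 0.45, and TPA 0.27 and 0.34. The normal libraries were the highest and the BAPN libraries the next. Its mean of under 1 FPKM put it below the filter, and with no filter its log2 change in BAPN was -0.14 (SE 0.13, limma adjusted p = 0.525). The cyclase subunits that the aorta mainly uses, Gucy1a3 and Gucy1b3 (names as in the files, and chosen here after their values were seen), were at 32.1 and 45.8 FPKM and at 33.4 and 71.9 FPKM in normal. In BAPN Gucy1a3 had 12.8 and 17.9 FPKM and Gucy1b3 11.8 and 11.02 FPKM, and neither passed (limma adjusted p = 0.131 and 0.091).

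Agtr1a, the angiotensin II type 1a receptor, ran the other way. It was at 8.89 and 1.83 FPKM in normal and at 12.2 and 17.2 FPKM in BAPN. TPA had 4.67 and 9.41 FPKM, T-5224 had 1.44 and 12.5 FPKM, and coQ10 had 2.04 FPKM. The BAPN libraries lay above the normal ones, but T-5224 replicate 2 lay within the BAPN pair and the spread within the normal and T-5224 pairs was wide. The log2 change in BAPN was 1.55 (SE 0.907, limma adjusted p = 0.274). The close copy Agtr1b was at 0.73 FPKM or less in every library, and the sources used here do not say whether the counting split reads between the copies.

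Sympathetic neuron markers, which mark nerve cells and not the vessel wall, moved with Agtr1a. The summed FPKM of Th, Dbh, Npy and Stmn2 was 1082 and 1640 in BAPN against 113 and 8.42 in normal. With TPA it was 47.5 and 388, with T-5224 4.43 and 215, and with coQ10 10.01. The 3 libraries with the lowest sums, T-5224 replicate 1, normal replicate 2 and coQ10, were the 3 with Agtr1a below 3 FPKM. Of the 4 markers, all were above 0 in every library except Npy, which was listed at 0 in normal replicate 2. The part of these cells in the level of Agtr1a was not tested.

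Ednrb, the endothelin B receptor, was at 18.9 and 10.4 FPKM in normal and at 35.3 and 28.6 FPKM in BAPN. TPA had 11.5 and 15.6 FPKM, T-5224 had 3.93 and 30.7 FPKM, and coQ10 had 18.5 FPKM. BAPN and T-5224 replicate 2 formed the upper 3 libraries, and the log2 change in BAPN was 1.12 (SE 0.809, limma adjusted p = 0.363). Endothelial markers, the mean of 8 genes as log2 of FPKM plus 1, were 5.79 and 5.53 in BAPN against 6.06 and 5.33 in normal. With TPA they were 5.28 and 5.42, with T-5224 4.25 and 6.22, and with coQ10 5.92. T-5224 replicate 1 was the lowest library for these markers and for Ednrb, while the markers overlapped between BAPN and normal. The part of endothelium in the level of Ednrb was not tested.

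Ednra, the endothelin A receptor through which endothelin constricts smooth muscle, was at 15.4 and 5.62 FPKM in normal and at 4.08 and 2.36 FPKM in BAPN. TPA had 7.66 and 6.19 FPKM, T-5224 had 5.75 and 2.55 FPKM, and coQ10 had 8.33 FPKM. The BAPN libraries were below both normal libraries, with a log2 change of -1.34 (SE 0.534, limma adjusted p = 0.14). Ednra was below Ednrb in every library except T-5224 replicate 1, where it had 5.75 FPKM and Ednrb 3.93 FPKM. Fibroblast markers, the mean of 6 genes as log2 of FPKM plus 1, were lowest in T-5224 replicate 2 (5.60) and BAPN replicate 2 (5.77), the libraries with the lowest Ednra. By summed FPKM the same 6 genes went another way, with the highest sum in T-5224 replicate 2 (2145) and the lowest in normal replicate 2 (692). The part of fibroblasts in the level of Ednra was not tested.

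**Figure D2:**
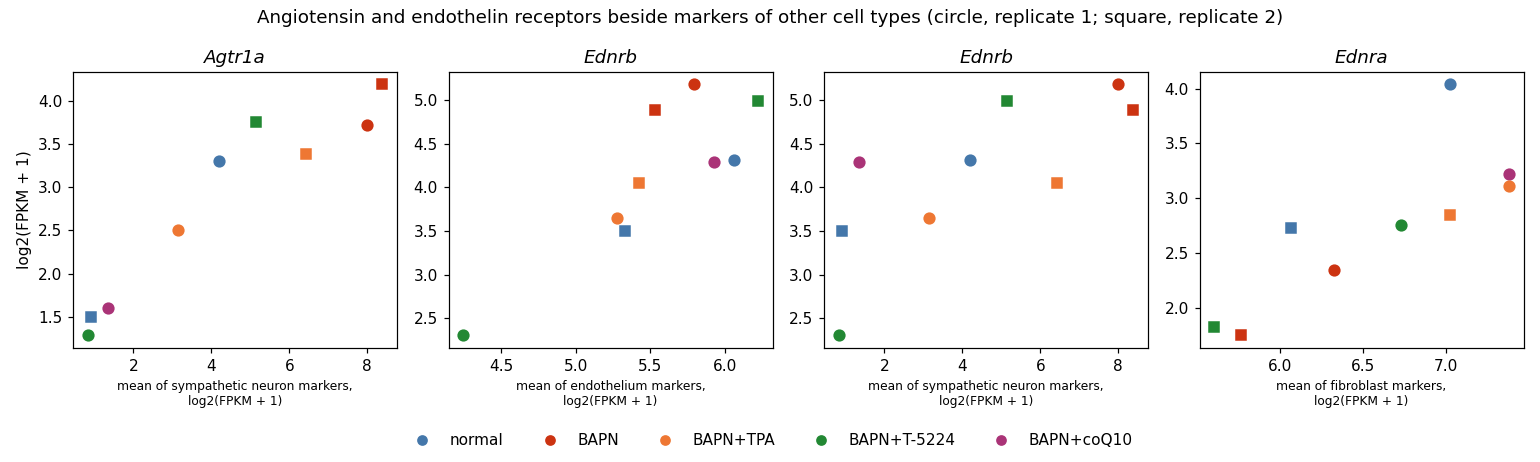
Levels of Agtr1a, Ednrb and Ednra, as log2 of FPKM plus 1, against the mean of sympathetic neuron, endothelium or fibroblast markers on the same scale, with 1 point per library. Agtr1a is lowest in the 3 libraries with the lowest neuron markers, and Ednrb is lowest in T-5224 replicate 1, the library with the lowest endothelial markers.

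Across the members, the libraries of BAPN and normal did not overlap for any of the 10. For 8 both BAPN libraries were below both normal ones, and over all tested genes this held for 51.1%. For 2, Agtr1a and Ednrb, both were above, against 15% of all tested genes. Of the 9 tested members, 7 had an unadjusted p under 0.05, against 32.4% of all tested genes, and 1 passed after adjustment. Their median log2 change was -2.15, and the median of all tested genes was -0.51 as deposited. Median-of-ratios scaling moves the median of all genes to -0.01 and scaling without haemoglobin to -0.40. None of the 9 tested members changed direction in this comparison under either, and Gucy1a2, below the filter, was not in these fits.

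The number of members that passed depended on the spread taken from libraries outside the comparison. Leaving out either T-5224 library left the changes in this comparison as they were and altered only the shared spread. Both settings take the same T-5224 pair out of that spread, so they are not separate checks. More members then passed, and the closing section gives the range of counts with that of all tested genes. Without normal replicate 1 and T-5224 replicate 2 together, the spread comes from the BAPN and TPA pairs alone, and the counts of that fit are also left to the closing section. None passed without normal replicate 1, either BAPN library or either TPA library.

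**Figure D3:**
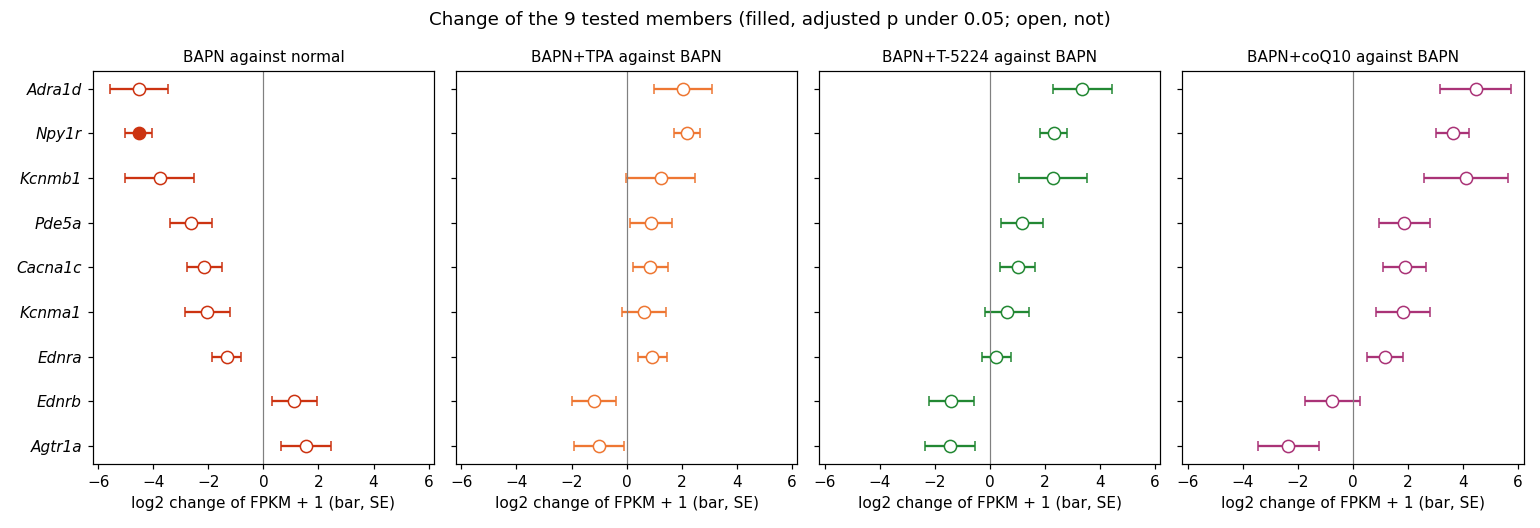
Log2 change of FPKM plus 1 with its SE for the 9 tested members in BAPN against normal and in each treated group against BAPN, from limma, with filled points for adjusted p under 0.05. Npy1r in BAPN against normal is the only filled point, at -4.53, and the treated panels share the BAPN libraries as their reference.

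TPA, T-5224 and coQ10 were each set against BAPN alone to ask what the AP-1 activator, the AP-1 inhibitor and the antioxidant add. No member passed in any of these comparisons. They share the BAPN libraries, so values that lie on the same side in all of them are not independent.

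Against BAPN, both TPA libraries were higher for 7 of the 9 tested members, where 41.4% of all tested genes were, and lower for Agtr1a and Ednrb, where 21.2% were. Of the members 0 passed in limma and 1, Npy1r, had an unadjusted p under 0.05, against 0.0385% and 10.2% of all tested genes. Npy1r was at 9.56 and 10.5 FPKM with TPA and 1.06 and 1.81 FPKM without, a log2 change of 2.20 (SE 0.483, limma adjusted p = 0.333). Adra1d differed by 2.04 (adjusted p = 0.528), Kcnmb1 by 1.24, Ednra by 0.93, Pde5a by 0.90, Cacna1c by 0.86 and Kcnma1 by 0.64, and Ednrb by -1.18 and Agtr1a by -1.01. The smooth muscle marker mean was 6.93 and 7.28 in TPA against 6.16 and 5.18 in BAPN.

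Against BAPN, the T-5224 libraries disagreed with each other. Npy1r and Adra1d were the members for which both lay above both BAPN libraries, which 34.2% of all tested genes did, and no tested member had both below, where 12.8% did. Of the tested members 0 passed in limma and 2, Npy1r and Adra1d, had an unadjusted p under 0.05, against 0.0308% and 18.3% of all tested genes. Npy1r differed by 2.32 (SE 0.483, limma adjusted p = 0.148) and Adra1d by 3.37 (SE 1.05, adjusted p = 0.2). For Kcnmb1, Kcnma1 and Cacna1c, T-5224 replicate 1 lay at 82.9, 7.52 and 6.48 FPKM, inside or above the normal range, and replicate 2 at 3.99, 0.73 and 0.84 FPKM, inside or below the BAPN range. The change of Ednra, 0.24, turned to -0.04 with median-of-ratios scaling and to -0.15 with scaling without haemoglobin. Without T-5224 replicate 1, Cacna1c and Kcnma1 turned to -0.002 and -0.52. The titles give these libraries different numbers of weeks, and time and replicate cannot be told apart. Gavage began on day 7 or 14 and the mice were killed on day 28, so the weeks may be those of gavage. The pair was fitted as replicates, so its difference enters the spread behind every SE and p-value. The second fit leaves 1 library in the T-5224 group and is not read here.

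Against BAPN, the coQ10 library was higher than both BAPN libraries for 7 of the 9 tested members, where 59.6% of all tested genes were, and lower for Agtr1a and Ednrb, where 24.1% were. Of the tested members 0 passed in limma and 4, Npy1r, Adra1d, Kcnmb1 and Cacna1c, had an unadjusted p under 0.05, against 0.0154% and 19.8% of all tested genes. Adra1d differed by 4.46 (SE 1.29, limma adjusted p = 0.191), Kcnmb1 by 4.12 (SE 1.53, adjusted p = 0.223) and Npy1r by 3.62 (SE 0.592, adjusted p = 0.185). The group has 1 library, which the fit assumes to vary like the others.

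Each treated group was also set against normal aorta, to show which members stayed away from the level of untreated mice. With TPA, 6 of the 9 tested members, Npy1r, Adra1d, Cacna1c, Kcnmb1, Kcnma1 and Pde5a, were below both normal libraries, where 51.1% of all tested genes were, and none was above both, where 9.03% were. In limma 0 passed and 1 had an unadjusted p under 0.05, against 0.0462% and 11.6% of all tested genes. Npy1r had a log2 change of -2.33 (limma adjusted p = 0.395), Kcnmb1 -2.53 and Adra1d -2.48. Ednrb lay close to normal at -0.06, and its sign turned with median-of-ratios scaling (0.30) and with scaling without haemoglobin (0.17).

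With T-5224, Npy1r was the one tested member below both normal libraries, where 26% of all tested genes were, and none was above both, where 12.7% were. In limma 0 members passed and 1 had an unadjusted p under 0.05, against 0.00769% and 13.9% of all tested genes, and Npy1r had a change of -2.21 (adjusted p = 0.278). Without T-5224 replicate 2, Adra1d and Kcnmb1 changed sign to 0.49 and 0.56. The sign of Agtr1a, 0.11, also turned with scaling without haemoglobin (-0.28).

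In coQ10 the tested members differed from normal by -0.91 (Npy1r) to 0.38 (Ednrb) on the log2 scale, the narrowest span of the 4 comparisons with normal. Npy1r, at 28.6 FPKM, and Pde5a, at 17.7 FPKM, were below both normal libraries, where 36.4% of all tested genes were, and none was above it, where 25.1% were. In limma 0 members passed, 0 had an unadjusted p under 0.05, and 0% and 2.71% of all tested genes did. Adra1d, at -0.06, turned to 0.03 with median-of-ratios scaling. A p that misses the threshold with 1 library does not show that coQ10 and normal were alike, and the SE of these changes was 0.592 to 1.53.

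Because the smooth muscle markers were also lower in BAPN, each member was set against them within its library, as a description with no test. Without an offset, the marker mean differed by -3.55 between BAPN and normal, and the log2 ratio of a member to the markers differed least for Cacna1c (0.46), Pde5a (0.65), Kcnmb1 (-0.68) and Kcnma1 (0.95), with overlapping libraries for Cacna1c alone. The ratio was lower in BAPN for Adra1d (-3.13) and Npy1r (-1.75) and higher for Ednra (1.97), Gucy1a2 (3.22), Ednrb (4.74) and Agtr1a (5.40). With the offset of 1 the same differences were -1.14 for Adra1d and -1.15 for Npy1r, since the offset compresses values near 0, and 1.23 for Cacna1c.

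The ratio of Adra1d to the markers without an offset was -7.35 and -7.34 in BAPN against -4.43 and -3.995 in normal. It was -4.67 and -5.22 with TPA, -3.46 and -4.76 with T-5224 and -4.001 with coQ10. The BAPN libraries were the lowest of these. With the offset of 1 they were at -5.67 and -4.93, and TPA replicate 2, at -4.94, lay between them. The ratio of Npy1r without an offset was -5.95 and -4.09 in BAPN against -3.13 and -3.41 in normal. It was -3.61 and -3.84 with TPA, -4.86 and -3.50 with T-5224 and -3.94 with coQ10, so T-5224 replicate 1 lay within the BAPN range.

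**Figure D4:**
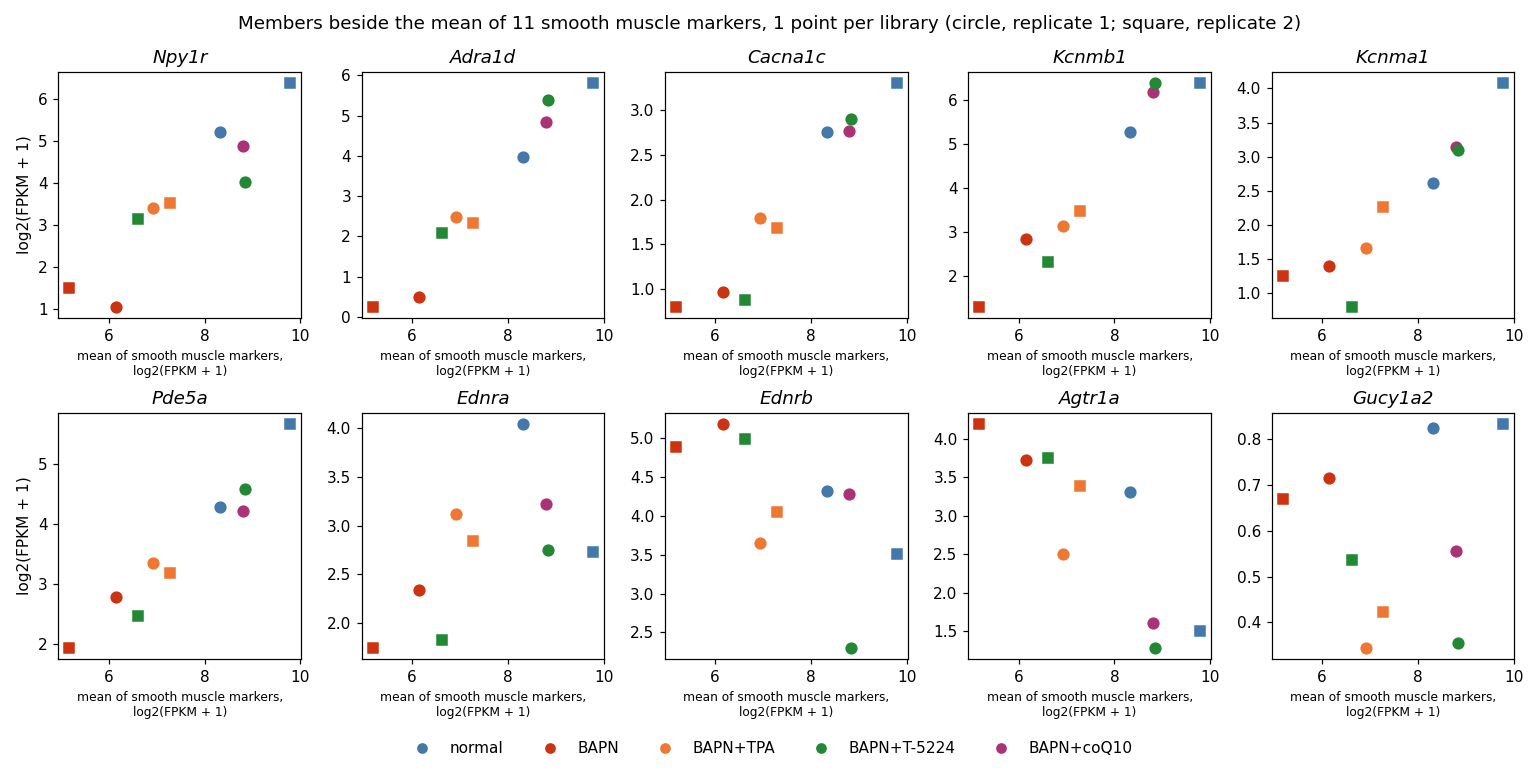
Level of each member against the mean of 11 smooth muscle markers in the same library, both as log2 of FPKM plus 1, coloured by group. Npy1r, Adra1d, Cacna1c, Kcnmb1, Kcnma1 and Pde5a are high where the markers are high, Agtr1a lies the other way, and Gucy1a2 stays under 0.9 throughout.

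The members' surroundings in the tone pathways were read from 7 lists with 117 genes, of which 96 were tested. In BAPN against normal 8 of the 96 passed, all lower, and 49 had an unadjusted p under 0.05, where 3.26% and 32.4% of all tested genes did. With median-of-ratios scaling 1 of the 96 passed, and 0 passed with scaling without haemoglobin or with no filter. Their median change was -1.08, against -0.51 for all tested genes. Fewer passed without normal replicate 2, and none without normal replicate 1 or any BAPN or TPA library. More passed in the second fit and without either T-5224 library, which takes the same pair out of the shared spread. The closing section gives the counts of the second fit, and only the range for leaving out 1 library, with those of all tested genes.

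Among calcium channels and stores, 12 of 15 tested genes had a change below 0 and 3 passed. Atp2a2, the pump that loads the sarcoplasmic reticulum, was at 412 and 237 FPKM in normal and 38.4 and 27.4 FPKM in BAPN and fell by 3.23 (SE 0.456, limma adjusted p = 0.0426). Ryr2, a calcium release channel, fell by 2.50 (SE 0.399, adjusted p = 0.0458), from 9.68 and 8.13 to 0.51 and 1.03 FPKM. Stim1, the sensor that opens store-operated entry, fell by 1.65 (SE 0.308, adjusted p = 0.049). Heart muscle also expresses Atp2a2 and Ryr2 strongly. Heart muscle markers summed to 9087 and 37.0 FPKM in normal replicates 1 and 2 and to 16.4 and 34.8 FPKM in BAPN, and their part in these changes was not tested.

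Among dilator receptors, the natriuretic peptide receptor Npr1, itself a guanylate cyclase, fell by 2.57 (SE 0.427, limma adjusted p = 0.0458), from 64.8 and 145 to 18 and 13.3 FPKM. Npr3, which clears natriuretic peptides, fell by 1.82 (SE 0.303, adjusted p = 0.0458). Npr2 had a change of -1.52 (adjusted p = 0.079) and Ramp3, a partner of the adrenomedullin receptor, 1.17 (adjusted p = 0.103). Of the 14 tested dilator receptors 2 passed, where 3.26% of all tested genes did.

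In signalling to the contractile proteins, 16 of 19 tested genes had a change below 0 and 3 passed, where 3.26% of all tested genes passed. The unadjusted p was under 0.05 for 9 of the 19, against 32.4% of all tested genes. Ppp1r12a, the targeting subunit of myosin phosphatase, fell by 2.58 (SE 0.387, limma adjusted p = 0.0458), Arhgef12, which links G proteins to RhoA, by 2.14 (SE 0.364, adjusted p = 0.0474) and Gna11, a Gq-family protein used by constrictor receptors, by 1.67 (SE 0.267, adjusted p = 0.0458). Ppp1r12b had a change of -1.78 (adjusted p = 0.0807).

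No gene passed in the other 4 lists. The unadjusted p was under 0.05 for 32.4% of all tested genes, for 6 of 9 tested genes of the cyclic GMP pathway, for 7 of 13 potassium channel genes, and for 5 of 13 in both the constrictor receptors and the ligands. Pde3a, a phosphodiesterase that cyclic GMP inhibits, had a change of -3.19 (limma adjusted p = 0.0547), Mrvi1, a substrate of the cyclic GMP kinase at calcium stores, -3.93 (0.089), Prkg1, that kinase, -1.51 (0.0803) and Pde1b 1.40 (0.113). Among potassium channels, Abcc9, the regulatory subunit of the vascular KATP channel, was at -1.85 (limma adjusted p = 0.0504), Kcnk6 at -1.34 (0.0686) and Kcnmb4, a BK subunit typical of neurons, at 4.11 (0.06). Kcnmb4 had 0.11 FPKM in each normal library and 12.6 and 26.1 FPKM in BAPN, where Kcnmb1, the smooth muscle subunit, was at its lowest group mean.

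Among constrictor receptors, Htr1b, a serotonin receptor, had a change of -3.34 (limma adjusted p = 0.0709), Tbxa2r, the thromboxane receptor, -2.46 (0.102) and Adra2a, an adrenergic receptor also found on sympathetic neurons, 2.09 (0.0627). Among ligands and their enzymes, Ptgis, prostacyclin synthase, was at -3.45 (limma adjusted p = 0.0613), Ace, which makes angiotensin II, at -1.50 (0.0627), Nos2 at -1.42 (0.0604) and Edn3, an endothelin that acts on Ednrb, at 1.97 (0.0587). Npy, the ligand of Npy1r (chosen after its values were seen), was at 430 and 920 FPKM in BAPN and at 67.0 and 0 FPKM in normal, a change of 6.26 (SE 2.64, adjusted p = 0.155), so the receptor was lowest in the libraries with the most of its ligand's RNA. Npy is itself among the sympathetic neuron markers above, and Kcnmb4, Adra2a and Edn3 were higher in the BAPN libraries along with those markers, whose part was not tested.

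**Figure D5:**
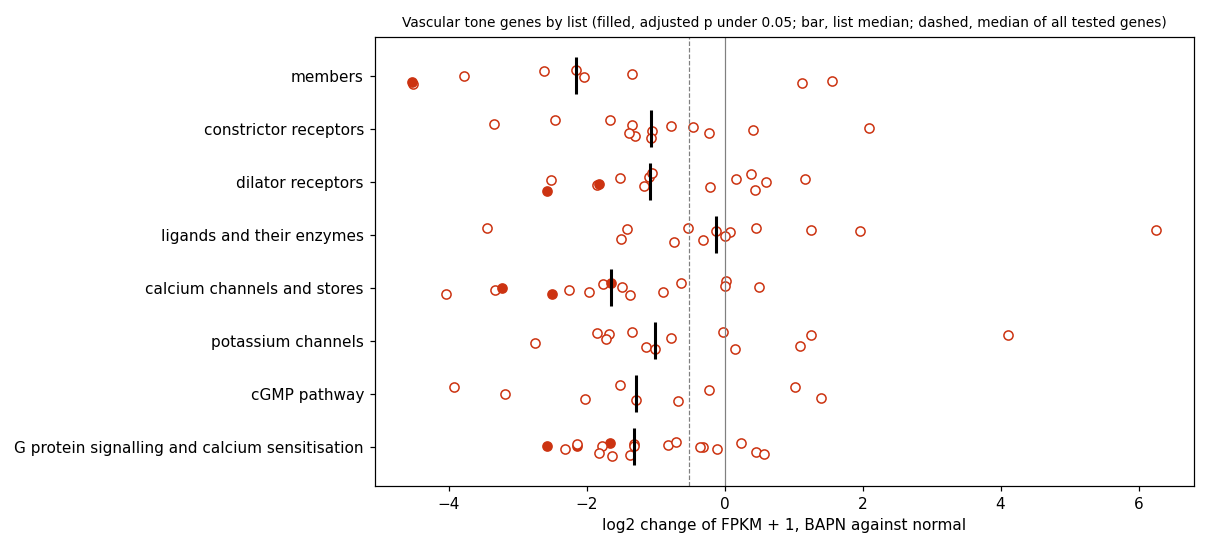
Log2 change of FPKM plus 1 in BAPN against normal for the tested members and for the tested genes of 7 tone lists, 1 point per gene, with a bar at the list median and a dashed line at the median of all tested genes (-0.51). The 9 filled points, Npy1r and 8 pathway genes, are all below 0.

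Under treatment none of the 96 tested pathway genes passed against BAPN or against normal in limma. Against BAPN, 11 had an unadjusted p under 0.05 with TPA, 19 with T-5224 and 26 with coQ10, where 10.2%, 18.3% and 19.8% of all tested genes did. Against normal 22, 20 and 6 did, where 11.6%, 13.9% and 2.71% of all tested genes did. Stim1 had the smallest p of the calcium genes with TPA against BAPN, at 22.8 and 27.1 FPKM against 7.49 and 8.73, a change of 1.51 (SE 0.308, limma adjusted p = 0.316). Atp2a2 was at 1.89 (adjusted p = 0.341). Muscle markers were also higher with TPA, with skeletal sums of 6980 and 12727 FPKM against 2863 and 1297 in BAPN and heart sums of 2856 and 734 against 16.4 and 34.8, and their part was not tested. Ace was at 1.32 (adjusted p = 0.405), Npr3 at 1.202 (0.352), Kcnk6 at 1.19 (0.424), Ramp3 at -1.08 (0.461) and Edn3 at -1.78 (0.362).

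The genes whose pattern over the 9 libraries was most like each member's were read off by Pearson's r of log2 of FPKM plus 1, as a description over 9 libraries that share their tissue content. For Npy1r they were Kif13a (0.99) and Igf1r (0.99), for Adra1d Sost (0.99) and Nkd1 (0.99), and for Cacna1c Prdm15 (0.99) and Actn1 (0.99). For Kcnmb1 they were Mta1 (1.00) and Cspg4 (0.99), for Kcnma1 Clmp (0.99) and Scube3 (0.99), and for Pde5a Gpr161 (0.99) and Tgfbr1 (0.99). For Ednra they were Sipa1l3 (0.98) and Abhd6 (0.97), for Ednrb Sh3bp5 (0.98) and Slc10a6 (0.96), and for Gucy1a2 Dynll2 (0.93) and Wbp2 (0.91). For Agtr1a they were Npy (0.99) and the neuronal gene Mapt (0.98).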

How the data were processed

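RNA was extracted from aorta with Trizol and sequenced after a TruSeq RNA kit, per the labels' protocols. For each library the authors deposited a table of FPKM by gene symbol, with 2 decimals and without genes at 0. The build mm10 is named in the submitters' processing notes, and the sources used here name no aligner, counter or annotation. FPKM hold no counts, so depth is unknown and no counting interval is given. From the commonest ratio of low values (0.15 to 1.2 FPKM), 1 read was worth 0.87 to 1.18 times its value in BAPN replicate 2, with T-5224 replicate 2 not resolved.

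Unlisted genes were set to 0. Genes with a mean of at least 1 FPKM were tested on log2 of FPKM plus 1 in limma 3.58.1 (R 4.3.3), with all 9 libraries in 5 groups, a variance trend, two-sided p-values and Benjamini-Hochberg adjustment over the 12997 genes of each of 7 comparisons, at a threshold of 0.05. The fit was tested on simulated data. Alternatives were an offset of 0.1, median-of-ratios scaling, scaling without haemoglobin, no filter, leaving out each library and a replicate block. Pathway genes named are, per list, the 3 with the smallest p in BAPN against normal, the 2 in TPA against BAPN and any that passed, and pattern neighbours the 2 with the highest r per member; 1 gene that the rule names is not reported here. Coordinates, promoters and synonyms come from RefSeq on GRCm38.p6, which matched 17131 of 17179 symbols (99.7%). Tables and figures used python 3.11.15, pandas 2.3.3, numpy 2.4.6 and matplotlib 3.10.9. The members, lists and rules were chosen with earlier results of these data known.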

Additional observations from a re-analysis of the deposited data

How the results depend on the processing

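The deposited FPKM give no depth, so values near 0 (Gucy1a2, Adra1d in BAPN) are imprecise to an unknown degree, and pairs of libraries, or 1 for coQ10, set the precision. Of the member changes recomputed, 823 kept direction and side of the threshold, 44 came to pass, 7 no longer passed and 35 changed sign; every cause not shown by an alternative's own construction was not tested.

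Counts of all tested genes that passed are given in the order main, then alternatives that moved them over 1.5 times. BAPN against normal had 424, with 152 at an offset of 0.1, 226 with median-of-ratios scaling (196 higher, 30 lower), 30 with scaling without haemoglobin (28 higher, 2 lower), 53 with no filter (33 higher, 20 lower), 8 with the replicate block and 4032 without normal replicate 1 and T-5224 replicate 2, a setting chosen after seeing the data. TPA against normal had 6, with 10, 2 and 1531 under the last 3 settings, and T-5224 against normal had 1, with 0 under the replicate block and 42 without the 2 libraries. CoQ10 against normal had 0, and 3 with no filter. TPA against BAPN had 5, with 0 at an offset of 0.1, then 9, 2 and 1023. T-5224 against BAPN had 4, with 2, 35, 13, 2, 0 and 2245 under the same 6 settings. CoQ10 against BAPN had 2, with 1 at an offset of 0.1, 10 with median-of-ratios scaling, 7 with no filter and 2967 without the 2 libraries.

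Members called in BAPN against normal were 1, with 0 under scaling without haemoglobin or the replicate block and 8 without the 2 libraries. Without them, the other comparisons in which 0 members passed had 6 (TPA against normal), 3 (TPA against BAPN), 8 (T-5224 against BAPN) and 7 (coQ10 against BAPN). Pathway genes called in BAPN against normal were 8, with 5 at an offset of 0.1, 1 with median-of-ratios scaling, 0 with scaling without haemoglobin, no filter or the block, and 51 without the 2 libraries. Without them the other comparisons had 29 (TPA against normal), 8 (TPA against BAPN), 27 (T-5224 against BAPN) and 35 (coQ10 against BAPN).

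Leaving out 1 library at a time gave 0 to 3670 genes, 0 to 6 members and 0 to 43 pathway genes in BAPN against normal, 0 to 25 genes in TPA against normal, 0 to 2236 genes, 0 to 3 members and 0 to 22 pathway genes in T-5224 against normal, 0 to 9 genes in TPA against BAPN, 0 to 85 genes and 0 to 1 pathway genes in T-5224 against BAPN, and 0 to 104 genes and 0 to 1 pathway genes in coQ10 against BAPN. A fit without the coQ10 library was not possible for its own comparisons.

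The replicate numbers shared by the groups do not pair the libraries: the correlation of deviations between same-numbered libraries ran from -0.44 to 0.18 over 6 pairs of groups. With the replicate block the change of Npy1r in BAPN against normal, -4.53, had an adjusted p of 0.0721 in limma. CoQ10 was left out of that fit.

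Changes of sign are given as the log2 change. In TPA against normal, Agtr1a was 0.54 and became -0.36 to 1.44 (leaving out 1 library). Ednra was -0.40 and became 0.25 (without the 2 libraries), -1.06 to 0.25 (leaving out 1 library). Ednrb was -0.059 and became 0.30 (median-of-ratios), 0.17 (without haemoglobin), 0.35 (without the 2 libraries), -0.46 to 0.35 (leaving out 1 library). In T-5224 against normal, Agtr1a was 0.12 and became -0.28 (without haemoglobin), -0.21 (without the 2 libraries), -1.12 to 1.35 (leaving out 1 library). Ednra was -1.09 and became 0.028 (without the 2 libraries). Ednrb was -0.27 and became -1.61 to 1.08 (leaving out 1 library). Adra1d was -1.15 and became -2.80 to 0.49 (leaving out 1 library). Kcnmb1 was -1.48 and became 0.002 (without the 2 libraries), -3.51 to 0.56 (leaving out 1 library). In coQ10 against normal, Agtr1a was -0.80 and became 0.10 (without the 2 libraries), -1.70 to 0.10 (leaving out 1 library). Ednra was -0.16 and became 0.49 (without the 2 libraries), -0.82 to 0.49 (leaving out 1 library). Ednrb was 0.38 and became -0.029 to 0.78 (leaving out 1 library). Adra1d was -0.06 and became 0.03 (median-of-ratios), -0.98 to 0.86 (leaving out 1 library). Cacna1c was -0.26 and became -0.54 to 0.013 (leaving out 1 library). Kcnmb1 was 0.35 and became -0.21 (without the 2 libraries), -0.21 to 0.91 (leaving out 1 library). Kcnma1 was -0.20 and became -0.94 to 0.53 (leaving out 1 library). In T-5224 against BAPN, Ednra was 0.24 and became -0.041 (median-of-ratios), -0.15 (without haemoglobin), -0.22 to 0.71 (leaving out 1 library). Cacna1c was 1.01 and became -0.002 to 2.02 (leaving out 1 library). Kcnma1 was 0.63 and became -0.52 to 1.78 (leaving out 1 library).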
